A study of Mus musculus with 4 samples.

Results

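The integrated stress response genes described here are 10 genes of 49997 in the count tables, found by symbol: Atf4, Atf5, Atf3, Ddit3, Cebpb, Cebpg, Trib3, Chac1, Nupr1 and Ppp1r15a. They are 6 transcription factors of the basic leucine zipper (bZIP) class and 4 genes that act downstream of them or feed back on the response. Poly(A) RNA was sequenced from explants of the mouse aorta-gonad-mesonephros region (AGM), the embryonic site where blood stem cells first form. Of 4 libraries, 2 came from untreated explants and 2 from explants given 5 µM CCCP, an uncoupler that carries protons across the inner mitochondrial membrane. All came from C57BL/6J embryos (E10.5 in the series design, while the growth protocol names both E10.5 and E11.5) and were held for 48 hours at a gas-liquid interface in MyeloCult medium with hydrocortisone. The labels call the cells embryonic blood stem cells and the series design speaks of Kit-positive cells, while the extraction protocol describes RNA of whole explants. No label says whether replicates came from separate embryos or pools, so p-values measure only the spread between these libraries, which may be technical.

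The integrated stress response starts when the kinases of eIF2 alpha sense a stress, such as misfolded protein, missing amino acids, viral RNA or, through the Oma1, Dele1 and Hri (Eif2ak1) relay, mitochondrial damage. Phosphorylated eIF2 alpha slows general translation while short upstream reading frames in a few mRNAs, those of Atf4, Atf5, Ddit3 and Ppp1r15a among them, raise the translation of their proteins. Much of this control therefore acts on protein and is not visible in mRNA, although Atf4 protein also raises the transcription of its target genes, and Ppp1r15a then brings a phosphatase to eIF2 alpha that ends the response.

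The libraries held between 37360968 and 48827826 counted reads, replicate 1 being the deeper one in each group. All 10 genes passed the filter on low counts, with 323 counts for the least counted value (Nupr1) and 16649 for the highest (Atf5). If each count was independent, counting error alone was at most 5.56% of a value (Poisson SD). Counting used no read-pair option, so mates of a pair may have been counted apart and the error may be larger. Transcripts that mark liver cells moved with the groups: the summed CPM (counts scaled to a common library size, with TMM factors) of 11 hepatic markers was 1773 and 1006 in the untreated libraries and just 53.6 and 109.6 with CCCP, and all 11 were lower. The summed CPM of 7 blood progenitor markers, Kit and Runx1 among them, was 140.8 and 155 untreated and 131 and 123 with CCCP, and none of these markers was at the floor of 3 counts in all libraries. Mesenchymal markers summed to between 2974 and 5299 CPM, so the RNA was that of a mixed tissue. In such bulk RNA, fewer cells of a type and less RNA per cell cannot be told apart. Of the other marker lists, the median log2 fold change (CCCP over untreated) was 0.33 for erythroid, 0.18 for macrophage, -0.21 for blood progenitor, -0.25 for endothelial, -0.07 for mesenchymal, 0.24 for skeletal muscle, 0.23 for neural and -0.01 for kidney and gonad markers. The part of cell composition in the results below was not tested.

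Of the 10 genes, 8 had a higher fitted level with CCCP, and in 7 each CCCP library exceeded each untreated library. A fitted log2 fold change above 0 was found for 49.2% of all 19837 genes tested, and CCCP above untreated without overlap for 24.0% of them. In no gene of the set did both CCCP libraries lie below, against 24.8% of all genes. The median log2 fold change of the 10 genes was 0.39, beside -0.01 over all genes. None of the 10 passed edgeR (quasi-likelihood F test, Benjamini-Hochberg adjustment over all genes tested, threshold 0.05), and 0 of 19837 genes did (0%), the adjusted p-values of the 10 running from 0.166 to 0.988. Unadjusted p-values under 0.05 were reached by 4 of them (Atf5, Ddit3, Trib3 and Ppp1r15a), all higher with CCCP, as were 5.45% of all genes. DESeq2 called 1, Ddit3, where it called 0.329% of the genes that it gave an adjusted p as higher.

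**Figure D1:**
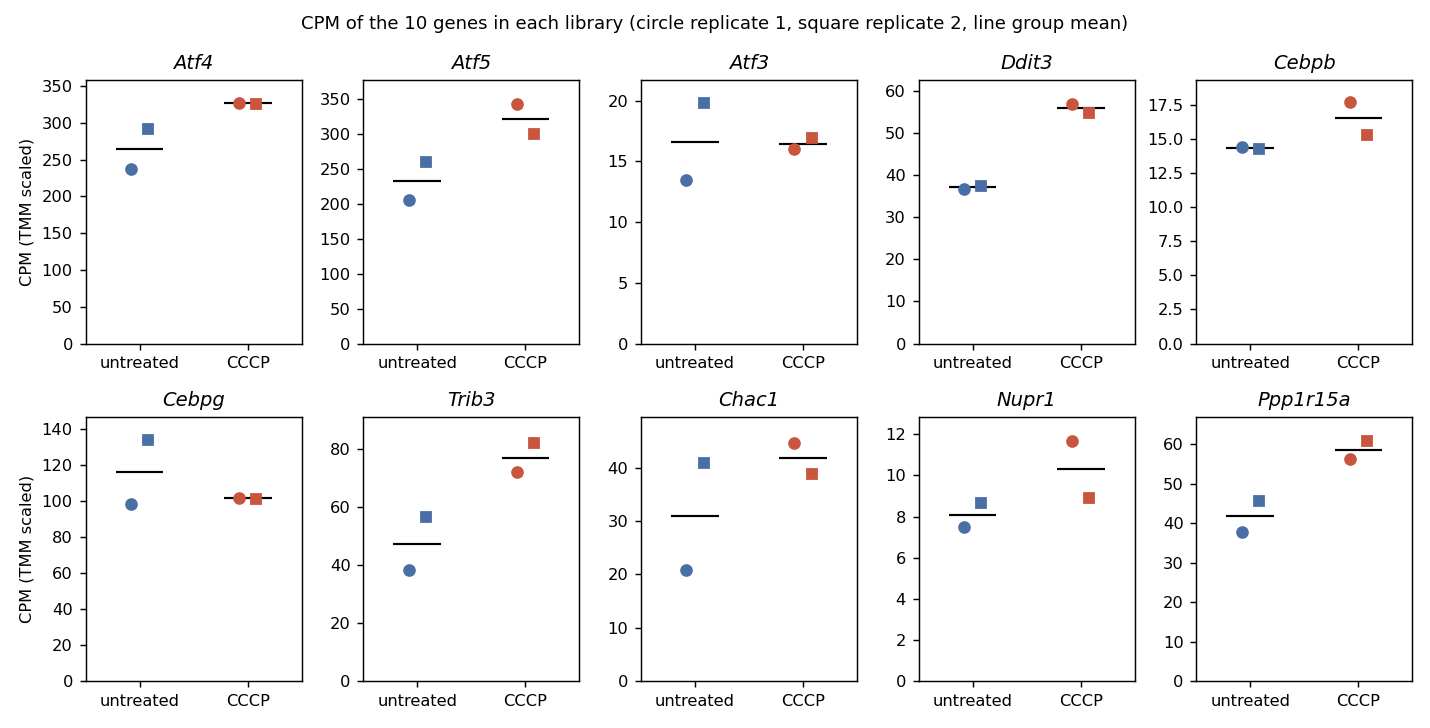
CPM of each of the 10 genes (vertical axes, each from 0, scaled by TMM) in untreated and CCCP explants, with circles for replicate 1, squares for replicate 2 and a line at the group mean. Both CCCP points lie above both untreated points in 7 panels, while Atf3, Cebpg and Chac1 overlap.

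Atf4, the factor at the head of the transcriptional response, lies on chromosome 15 (80255184 to 80257545, plus strand, mm10) and shares no exon base with another gene. Its CPM was 237 and 292 in untreated replicates 1 and 2, and 327 and 326 in CCCP replicates 1 and 2. The CCCP libraries lay close together and above both untreated libraries, which were themselves 1.23-fold apart. The group means were 264 ± 38.6 and 327 ± 0.881 CPM (SD, n = 2 each), with 0.31 ± 0.144 as the log2 fold change (SE, edgeR adjusted p 0.383). The log2 fold change was 0.17 without untreated replicate 1, and leaving out the other untreated library gave 0.48. With the trend on exon length removed from each library it was 0.16.

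Atf5, a close relative of Atf4 known for its part in the mitochondrial unfolded protein response, lies on chromosome 7 (44812256 to 44816658, minus strand). It had 206 and 261 CPM untreated and 343 and 300.0 CPM with CCCP, replicates 1 and 2 in each group. Every CCCP value was above every untreated value, and the lower of the CCCP libraries was 1.15 times the higher of the untreated libraries. The means were 233 ± 38.9 and 322 ± 30.4 CPM (SD, n = 2), with 0.46 ± 0.161 as the log2 fold change (SE, edgeR adjusted p 0.296). Exons of Il4i1b and Nup62 on the other strand cover 4.11% of its exon bases, and counting used no strand. With the trend on GC content removed its log2 fold change was 0.27.

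Per kilobase of exon, Atf4 and Atf5 stood far above the other 8 genes. The mean over the 4 libraries was 171 CPM per kilobase for Atf4 and 139 for Atf5, above 98.7% and 98.3% of all genes tested. Atf4 was the higher of the pair in each library, although their ranges across libraries overlapped. Trib3 followed at 30.4, Cebpg and Chac1 at 23.2 each, Ppp1r15a at 21.5, Ddit3 at 18.3, Nupr1 at 14.7, Cebpb at 10.2 and Atf3 at 8.36 CPM per kilobase. Neighbours in this order overlapped in their library ranges except at the steps from Atf5 to Trib3 and from Nupr1 to Cebpb.

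Ddit3 encodes Chop, a C/EBP-family factor induced late in an unresolved stress response and linked to cell death, and lies on chromosome 10 (127290793 to 127296291, plus strand). Its CPM was 36.7 and 37.5 untreated, against 56.9 and 54.6 with CCCP. Replicates of each group nearly coincided, and the lower of the CCCP values was 1.46 times the higher of the untreated values, the widest separation among the 10 genes. The means were 37.1 ± 0.575 and 55.8 ± 1.65 CPM (SD, n = 2), with 0.59 ± 0.114 as the log2 fold change (SE, edgeR adjusted p 0.166). DESeq2 gave an adjusted p of 0.0141, and over the alternatives its adjusted p ran from 0.00503 to 0.612. Leaving out any library kept the log2 fold change between 0.56 and 0.62. Exons of Mars1 and Mbd6 on the other strand cover 5.82% of its exon bases.

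Cebpb, a C/EBP factor that forms dimers with Atf4 and with Chop and is also abundant in liver, lies on chromosome 2 (167688915 to 167690432, plus strand). It had 14.4 and 14.3 CPM untreated and 17.7 and 15.3 CPM with CCCP. The groups did not overlap, but the lower of the CCCP values was just 1.06 times the higher of the untreated values. The log2 fold change was 0.21 ± 0.173 (SE, edgeR adjusted p 0.599). It came to 0.096 without CCCP replicate 1 and to 0.31 without CCCP replicate 2. It was 0.04 with the length trend removed and -0.02 with the GC trend removed, and its groups overlapped in both, as they did when libraries were scaled by total counts alone. The hepatic markers were far lower with CCCP, and the part of liver cells in the Cebpb values was not tested. In the annotation used for counting, Cebpb shares no exon base with another gene. In GENCODE transcripts 18.1% of its 50-base stretches also occur in Tmem189, and the part of such reads was not tested.

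Cebpg, a small C/EBP protein without an activation domain that pairs with Atf4, lies on chromosome 7 (35046422 to 35056566, minus strand). Its CPM was 98.2 and 134 untreated and 102 and 101 with CCCP. The CCCP libraries fell between the untreated ones, which made the groups overlap. Its log2 fold change was -0.19 ± 0.167 (SE, edgeR adjusted p 0.613). Leaving out untreated replicate 1 gave -0.39, and leaving out the other untreated library 0.07. Exons of Gm45095 on the other strand cover 4.06% of its exon bases. Scaling by total counts alone separated the groups, with CCCP the lower.

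Atf3, a repressor that several stresses and growth signals induce, lies on chromosome 1 (191170296 to 191183333, minus strand). It had 13.4 and 19.8 CPM untreated and 16.03 and 16.9 CPM with CCCP. Both CCCP values again lay between the untreated ones, and the log2 fold change was -0.01 ± 0.226 (SE, edgeR adjusted p 0.988). It turned to -0.26 when untreated replicate 1 was left out and to 0.31 when untreated replicate 2 was. Atf3 also belongs to the immediate early genes, which growth factors and tissue handling switch on, and of 18 other such genes tested 8 were higher and 10 lower, with a median log2 fold change of -0.08. Of these Jund stood at 0.48 and Ier2 at 0.46, Zfp36 at -0.19 and Klf6 at -0.12, and none of the list passed edgeR, while DESeq2 called Jund (adjusted p 0.0432). Ier2 was at 0.22 without untreated replicate 1 and at 0.77 without untreated replicate 2, and Zfp36 at -0.11 and Klf6 at -0.079 without untreated replicates 1 and 2 in turn. The median of that list was 0.19 without untreated replicate 1.

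Proximal promoters of 4 of the genes held a match to an element that bZIP factors bind, and these sequences are shown for that reason. In the RefSeq promoter table (GRCm38.p6, the same build as mm10), all 10 genes had an entry, 11 starts in all, and the 250 bases before each start were searched on both strands. The C/EBP-ATF response element (CARE), to which Atf4 and C/EBP factors bind as pairs, was searched as TGATGNAA and found for Atf3, Chac1 and Nupr1, against 3.45% of all 32851 promoters of that length. The cyclic AMP response element (CRE), searched as TGACGTCA, was found for Ppp1r15a, against 1.55% of all promoters. The C/EBP site TTGCNNAA (9.56% of all promoters) and the ER stress response element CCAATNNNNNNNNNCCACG (0.113%) had no match in the 10 genes, and no motif searched shared bases with another match. The sequences run 5′ to 3′ on the strand of the gene and end at the base before the start, with the matched bases in capitals. They lie at chr1:191183334-191183583 (minus strand), chr2:119350992-119351241 (plus strand), chr7:126625471-126625720 (minus strand) and chr7:45526269-45526518 (minus strand).
Atf3: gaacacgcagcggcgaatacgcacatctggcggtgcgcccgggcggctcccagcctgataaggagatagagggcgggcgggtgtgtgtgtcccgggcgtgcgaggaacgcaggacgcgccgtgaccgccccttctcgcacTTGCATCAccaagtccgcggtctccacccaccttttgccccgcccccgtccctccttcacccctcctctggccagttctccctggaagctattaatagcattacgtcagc
Chac1: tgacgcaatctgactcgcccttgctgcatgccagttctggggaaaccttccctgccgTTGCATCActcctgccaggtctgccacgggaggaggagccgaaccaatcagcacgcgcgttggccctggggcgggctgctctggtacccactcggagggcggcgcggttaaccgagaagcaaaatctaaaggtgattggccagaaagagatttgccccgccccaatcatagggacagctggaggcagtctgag
Nupr1: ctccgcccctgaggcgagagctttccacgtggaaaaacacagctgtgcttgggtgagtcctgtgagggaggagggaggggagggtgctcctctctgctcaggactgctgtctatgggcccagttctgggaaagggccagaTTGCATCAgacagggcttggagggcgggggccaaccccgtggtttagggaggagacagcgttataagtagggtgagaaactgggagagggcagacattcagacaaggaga
Ppp1r15a: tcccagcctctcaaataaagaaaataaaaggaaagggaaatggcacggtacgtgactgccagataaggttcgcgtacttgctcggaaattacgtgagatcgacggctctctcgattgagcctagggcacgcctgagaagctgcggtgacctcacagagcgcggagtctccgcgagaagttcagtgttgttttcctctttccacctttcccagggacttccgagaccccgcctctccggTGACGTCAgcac

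The CARE match reads TTGCATCA in each of the 3 promoters, the element on the strand opposite to the gene. It begins 110 bases before the start in Atf3 and in Nupr1 and 193 bases before it in Chac1, and the CRE of Ppp1r15a begins 12 bases before its start. Holding a match did not go with one pattern of values. Nupr1 and Ppp1r15a lay higher with CCCP in both libraries, while Atf3 and Chac1 overlapped between groups. For Nupr1 the lower CCCP value was just 1.03 times the higher untreated value. Of the genes without a match, Cebpg overlapped and the others lay higher with CCCP without overlap. A match is a stretch of letters in this window, and no binding was measured.

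Trib3, a pseudokinase that binds Atf4 and Chop and restrains Atf4 activity, lies on chromosome 2 (152337425 to 152344060, minus strand). Its CPM was 38.3 and 56.5 untreated and 72.0 and 82.2 with CCCP. The groups did not overlap, CCCP being higher, and in each group replicate 2 was the higher. The means were 47.4 ± 12.9 and 77.1 ± 7.19 CPM (SD, n = 2), a ratio of 1.63 and the largest log2 fold change of the 10 genes, 0.70 ± 0.201 (SE, edgeR adjusted p 0.249). It came to 0.46 when untreated replicate 1 was left out and to 1.03 when untreated replicate 2 was.

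Ppp1r15a (Gadd34), the stress-induced partner of the eIF2 alpha phosphatase, lies on chromosome 7 (45522917 to 45526268, minus strand). It had 37.8 and 45.7 CPM untreated and 56.3 and 60.8 CPM with CCCP, without overlap. The means were 41.7 ± 5.62 and 58.6 ± 3.23 CPM (SD, n = 2), with 0.49 ± 0.14 as the log2 fold change (SE, edgeR adjusted p 0.248). Leaving out a library kept its log2 fold change between 0.37 and 0.65. Tulp2, on the other strand, shares 0.471% of its exon bases.

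Chac1, an enzyme that breaks down glutathione and a well known target of Atf4, lies on chromosome 2 (119351242 to 119354326, plus strand). Its CPM was 20.9 and 40.9 untreated and 44.6 and 38.9 with CCCP. Untreated replicate 2 lay between the CCCP libraries, and untreated replicate 1 stood alone at the low end, so the untreated libraries were 1.96-fold apart. The log2 fold change was 0.44 ± 0.305 (SE, edgeR adjusted p 0.527). It came to 0.04 without untreated replicate 1, and leaving out untreated replicate 2 gave 1.02.

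Nupr1, a small chromatin-associated stress protein, lies on chromosome 7 (126623246 to 126625470, minus strand) and has the shortest exons of the set, 626 bases. It had 7.51 and 8.64 CPM untreated and 11.7 and 8.9 CPM with CCCP. The groups did not overlap, but CCCP replicate 2 was 1.03 times untreated replicate 2. The log2 fold change was 0.35 ± 0.231 (SE, edgeR adjusted p 0.506). It was 0.14 without CCCP replicate 1, 0.53 without CCCP replicate 2 and 0.13 with the length trend removed. The groups overlapped with the length or the GC trend removed and when libraries were scaled by total counts alone.

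**Figure D2:**
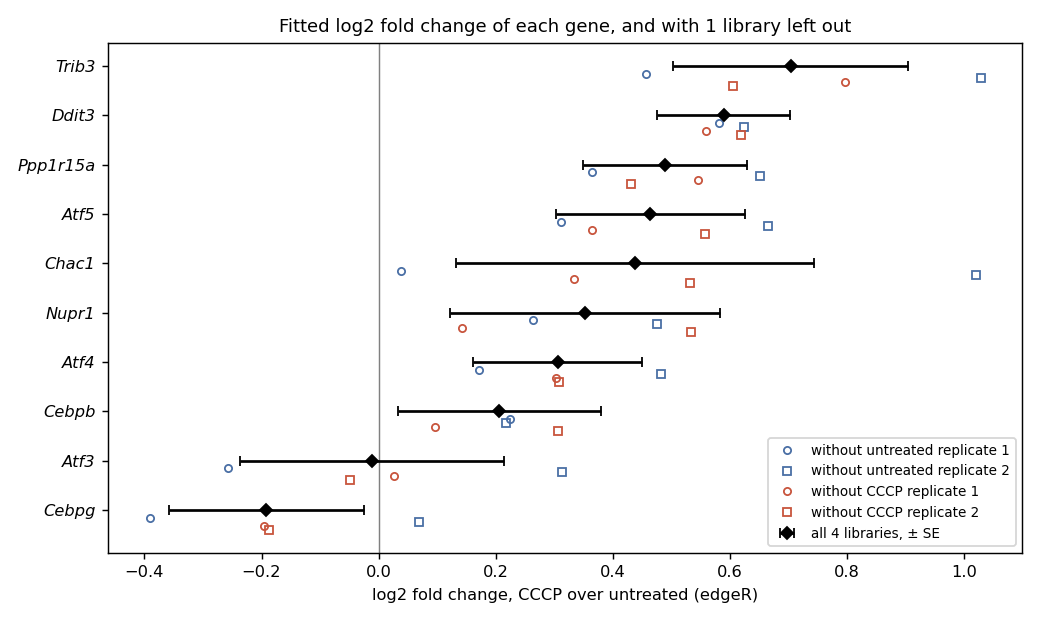
Fitted log2 fold change of each gene, CCCP over untreated, with its standard error (black diamonds and bars) and the value with 1 library left out (blue for untreated, red for CCCP, circle and square for replicates 1 and 2). Ddit3 stays between 0.56 and 0.62, while Chac1 runs from 0.04 to 1.02 and Atf3 from -0.26 to 0.31.

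The group difference of each of the 10 genes was also set against the spread between replicates. For 5 of them (Atf4, Atf5, Ddit3, Trib3 and Ppp1r15a) the difference between group means of log2 CPM exceeded the larger gap between replicates of a group, as it did for 36.1% of all genes tested. The ratio of the means of these 5 lay between 1.24 (Atf4) and 1.63 (Trib3). For Ddit3 the difference was 0.59 and the larger gap 0.06. For Trib3 they were 0.73 and 0.56, for Ppp1r15a 0.49 and 0.28, for Atf5 0.47 and 0.34, and for Atf4 0.31 and 0.30. For Chac1 the gap between the untreated replicates, 0.97, was larger than the difference of 0.51. For Cebpb the difference was 0.20 and the larger gap 0.21, so the cut runs close to Cebpb as well as to Atf4. The same 5 genes remained without overlap, CCCP higher, under every scaling, and with the length or the GC trend removed. They were picked on these same libraries, so this is no separate support. The share of all genes without overlap in those settings was not counted.

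**Figure D3:**
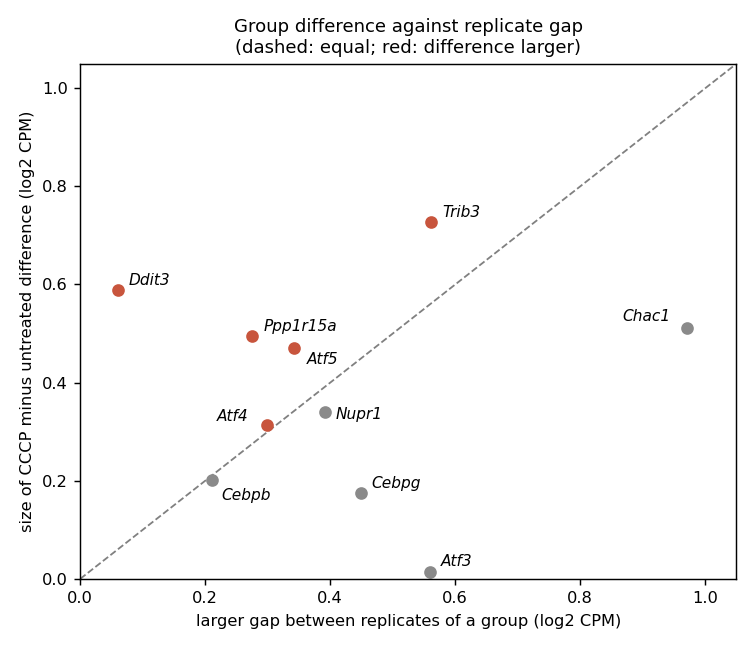
Size of the difference between group means of log2 CPM (vertical axis) against the larger gap between replicates of a group (horizontal axis) for the 10 genes, with a dashed line where both are equal. Ddit3 lies farthest above the line with a gap of 0.06, Atf4 lies just above it, and Chac1 lies below it with a gap of 0.97.

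Untreated replicate 1 was the lowest of the 4 libraries for 9 of the 10 genes, the exception being Cebpb, where it was the lowest for 31.7% of all genes tested. The summed CPM of the 10 genes was 709.8 in untreated replicate 1 and 909.6 in untreated replicate 2, and 1048 and 1005 in CCCP replicates 1 and 2. Without untreated replicate 1 the median log2 fold change of the 10 genes was 0.24, and both CCCP libraries then lay above untreated replicate 2 for 7 genes (37.6% of all genes) and below it for Atf3 and Cebpg (36.3% of all genes). Without untreated replicate 2 the median was 0.55 and both CCCP libraries lay above untreated replicate 1 for all 10 genes, against 41.3% of all genes, and below it for none, against 39.6%. The genes with long exons tended to be lower with CCCP across the 19837 genes (Spearman's rho -0.35, across genes that share their libraries, a description). The median exon length was 1985 bases in the 10 genes and 3467 bases in all genes tested. With the length trend removed their median log2 fold change was 0.23. Genes of higher GC content tended to be higher with CCCP (Spearman's rho 0.37 across the 91.8% of tested genes with a GC value, again a description), and with that trend removed the median of the 10 genes was 0.27.

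Ratios within a library do not depend on how libraries are scaled, and were chosen after the CPM values were seen. Per kilobase, Trib3 stood at 0.136 and 0.163 of Atf4 untreated and at 0.185 and 0.212 with CCCP. Ddit3 stood at 0.105 and 0.0874 of Atf4 untreated and at 0.118 and 0.114 with CCCP. Both genes were thus higher relative to Atf4 in each CCCP library than in either untreated library. Atf5 stood at 0.752 and 0.775 of Atf4 untreated and at 0.909 and 0.798 with CCCP, also without overlap. Chac1 overlapped, at 0.097 and 0.155 of Atf4 untreated and 0.15 and 0.131 with CCCP. The inducible phosphatase partner Ppp1r15a stood at 0.57 and 0.559 of its constitutive relative Ppp1r15b untreated and at 0.791 and 0.823 with CCCP, groups far apart against the gap between replicates. Cebpg stood at 2.2 and 3.04 times Cebpb untreated and at 1.86 and 2.13 times with CCCP, which was lower without overlap. This pair differs in exon length (4702 and 1518 bases) and GC content (43.3% and 67.2%). Trends on length and GC content do not cancel in any of these ratios, that of Ppp1r15a to Ppp1r15b included. No ratio was set against other pairs of genes. With the GC trend removed the log2 fold changes were -0.016 for Cebpg and -0.022 for Cebpb.

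**Figure D4:**
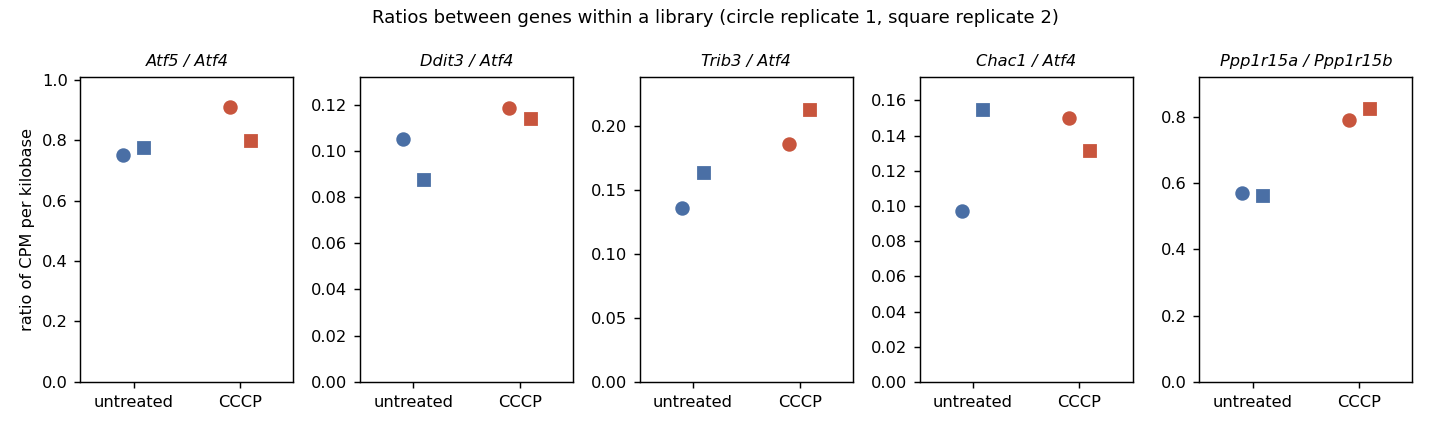
Ratio of CPM per kilobase between pairs of genes in the same library (vertical axes from 0), untreated and CCCP, circles for replicate 1 and squares for replicate 2. Ppp1r15a over Ppp1r15b is near 0.57 and 0.559 in the untreated libraries and at 0.791 and 0.823 with CCCP, while Chac1 over Atf4 overlaps.

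The rest of the pathway was read from lists that were chosen with earlier results of these data known. They held 112 tested genes, of which none passed in edgeR over all genes. DESeq2 called 9 of them, all higher with CCCP, 7 being ER stress genes. It called 0.329% of all genes with an adjusted p as higher. Of 32 target genes of Atf4 (amino acid synthesis and transport, tRNA charging, stress effectors), 26 were higher and 6 lower in CCCP explants (median log2 fold change 0.24). CCCP was higher without overlap for 10 of them and lower without overlap for 2, against 24.0% and 24.8% of all genes tested. That median was -0.05 without untreated replicate 1, and leaving out untreated replicate 2 gave 0.62. Herpud1, which serves degradation of ER proteins, had 98.3 and 95.1 CPM untreated and 145.3 and 151 with CCCP, a log2 fold change of 0.62 (edgeR adjusted p 0.151, DESeq2 adjusted p 0.00255). Wars, which charges tryptophan tRNA, stood at 0.46, and the lipoprotein receptor Vldlr and the mTOR inhibitor Ddit4 stood at -0.41 and -0.25. Wars was at 0.27 without untreated replicate 1 and at 0.72 without untreated replicate 2. Ddit4 was at -0.48 without CCCP replicate 1 and at -0.056 without CCCP replicate 2.

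Upstream of the 10 genes, the list of eIF2 kinases, exchange factor subunits and relay genes had 10 of 15 genes higher and a median log2 fold change of 0.13. That median was 0.082 without untreated replicate 1. The exchange factor subunits Eif2b2 and Eif2b4 stood at 0.44 and 0.32, and Eif2b2 at 0.23 without untreated replicate 1 and 0.71 without untreated replicate 2. Eif2ak2, the kinase that senses double-stranded RNA, stood at -0.54, with 24.1 and 20.7 CPM untreated and 16.4 and 14.4 with CCCP, and Eif2ak4, which senses uncharged tRNA, at -0.095, or -0.035 without untreated replicate 2. Among 19 other bZIP and related factors 11 were higher and 8 lower (median 0.09). The median was 0.024 without CCCP replicate 2, 0.14 without CCCP replicate 1 and 0.16 without untreated replicate 2. Xbp1 and Atf6b, factors of the ER stress pathways, stood at 0.46 and 0.41, and Creb1 and Cebpz at -0.59 and -0.29, Creb1 at -0.39 without CCCP replicate 1.

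Chaperones, folding factors and degradation genes of the endoplasmic reticulum answer to Xbp1 and Atf6 as well as to the PERK kinase that acts through eIF2 alpha. Their list had the highest median of the pathway lists, 0.43. Of 18 genes 17 were higher, 15 of them with both CCCP libraries above both untreated ones, against 49.2% and 24.0% of all genes tested. The median was between 0.36 and 0.56 whichever library was left out. The untreated libraries summed to 6544 and 5785 CPM and the CCCP libraries to 8118 and 7796, so for this list untreated replicate 1 was not the lowest. Sdf2l1 and Manf stood at 0.87 and 0.82 and passed in DESeq2 (adjusted p 8.71e-05 and 3.76e-05), though not in edgeR (0.144 each). The others that DESeq2 called were the chaperones and folding factors Calr, Creld2, Hyou1, Pdia4 and Pdia6, named here after their values were seen. The oxidase Ero1a, also a hypoxia target, stood at -0.53, and at -0.34 without untreated replicate 2. Of 10 mitochondrial chaperones and proteases 6 were higher, with a median of 0.16, where Clpp and Htra2 stood at 0.50 and 0.30 and Yme1l1 and Afg3l2 at -0.38 and -0.21. By the main edgeR test, the adjusted p-values of the genes named by rule from these lists lay between 0.144 and 0.712.

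**Figure D5:**
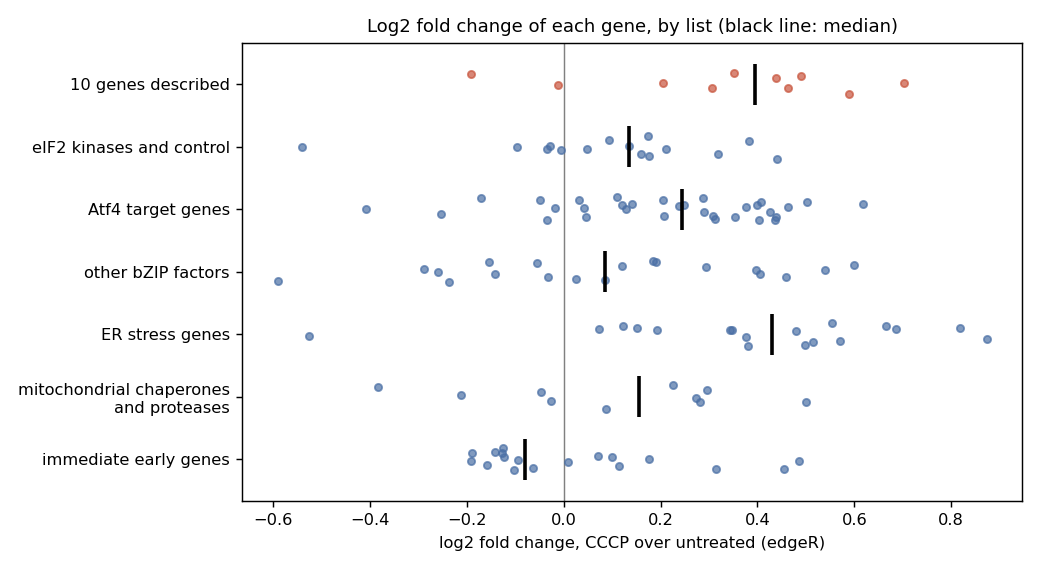
Fitted log2 fold change, CCCP over untreated, of each gene (points) in the 10 genes described and in 6 related lists, with a black line at each median. Medians are 0.39 for the 10 genes and 0.43 for the ER stress genes, against 0.24 for Atf4 target genes and -0.08 for immediate early genes.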

How the data were processed

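Poly(A) RNA was measured in 4 libraries, grouped by their titles. The authors deposited unnormalized read counts for each gene. They ran featureCounts 2.0.3 on mm10 with the NCBI RefSeq annotation, per the file headers, without a strand or read-pair option, and with reads that touch more than 1 gene not counted. HISAT2, SAMtools, Subread and FastQC are named in the submitters' processing notes. Exon length is a further deposited column. The main test was edgeR 4.0.16 (quasi-likelihood, TMM, filterByExpr with minimum count 10 and minimum total 15, group as the sole term, two-sided) in R 4.3.3, with Benjamini-Hochberg adjustment over 19837 genes and a threshold of 0.05. Total counts per library lie between 37360968 and 48827826, where 3 counts correspond to 0.0614 to 0.0803 CPM. Standard errors are the log2 fold change divided by the square root of F. DESeq2 1.42.0 was an alternative, and the fits were tested on simulated data. Length and GC trends were removed by lowess offsets (span 0.3), the GC content coming from GENCODE transcripts of the same build for 91.8% of the genes tested. The smallest two-sided p that an exact permutation test over 2 and 2 libraries allows is 0.333, and 4 libraries are too few to rank genes by likeness. Members and lists were chosen with earlier results of these data known. Genes other than the 10 were named by rule: in each pathway list, the 2 smallest p-values in each direction at a mean CPM of at least 5. The symbols Ero1l and Ero1lb were read as Ero1a and Ero1b through the RefSeq gene table.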

Additional observations from a re-analysis of the deposited data

How the results depend on the processing

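Across 16 other settings the log2 fold changes of Atf4, Atf5, Ddit3, Trib3, Chac1, Nupr1 and Ppp1r15a were above 0 in each. No gene passed with other scaling, a stricter filter, a robust dispersion, or the length or GC trend removed. DESeq2 called 594 genes, 2.99% of all (1 of the 10, Ddit3). The fit without a filter beyond 1 count called 1107, 3.43% of 32261 genes (3 of the 10: Atf5, Ddit3 and Trib3). Leaving out a library gave between 1 and 34 genes, 34 without untreated replicate 2 and 22 without CCCP replicate 2, and 0 of the 10. Same-numbered libraries deviated together (correlation 0.36 over genes), but the labels give replicate numbers no meaning. With the replicate block, edgeR called 2118 genes, 10.7% of all (4 of the 10: Atf5, Ddit3, Trib3 and Ppp1r15a). With the replicate block and the length trend removed it called 1117 (5.63%, 3 of the 10). With the replicate block and GC trend removed it called 978 (4.93%, 2 of the 10). Both GC settings were added after seeing the data. Of the 112 other genes of the pathway lists, DESeq2 called 9, all higher, and the fit without a filter beyond 1 count 16 of 113 (14 higher), with Sdf2l1 at an adjusted p of 1.94e-06, Manf at 6.92e-06, Herpud1 at 0.00171, Creb1 at 0.00665 and Jund at 0.0298. With the replicate block edgeR called 32 (27 higher), among them Sdf2l1 (0.000768), Manf (0.00112), Herpud1 (0.00406), Creb1 (0.00779), Jund (0.0181) and Ier2 (0.0281), 17 with the length trend removed as well and 11 with the GC trend removed as well. Other scaling, a stricter filter, a robust dispersion, a library left out, or either trend removed without the block called 0 of them. The 23 named by rule were picked by p-value on these same libraries, so their calls are no separate support. Of them 4 passed in DESeq2, 8 without the filter and 15 with the replicate block. The cause of these differences was not tested.

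The median log2 fold change of the 10 genes was 0.23 with the length trend removed, 0.25 with the replicate block and the length trend removed, and between 0.24 and 0.55 with a library left out. With a library left out, list medians lay between -0.050 and 0.62 for Atf4 targets, 0.36 and 0.56 for ER stress, 0.085 and 0.35 for mitochondrial chaperones and proteases, 0.082 and 0.20 for eIF2 control, 0.024 and 0.16 for other bZIP factors, and -0.19 and 0.19 for immediate early genes. Signs turned for Atf3 (0.0020 without the filter, 0.015 with the replicate block, and between -0.26 and 0.31 with a library left out), for Cebpg (between -0.39 and 0.069 with a library left out, and 0.00032 with the replicate block and the GC trend removed) and for Cebpb (-0.022 with the GC trend removed, -0.021 with the replicate block too). With the GC trend removed, without and with the replicate block, Yme1l1 stood at 0.0054 and 0.0049 and Klf6 at 0.0855 and 0.0857.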
